A study of Mus musculus with 4 samples.

Results

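Genes of the antioxidant response and of iron handling were read in bulk RNA-seq of cells labelled as CD8 T cells that recognise ovalbumin, isolated from mouse tumours. The set was a named list of 36 genes, and all 36 were found among the 14082 genes counted in every library. The tumour was E.G7, a mouse lymphoma line that makes ovalbumin, grown under the skin of mice aged 6 to 10 weeks. All mice carried floxed Smad4. The group labelled WT had the genotype Smad4-fl/fl and the group labelled KO the genotype Cd8-cre Smad4-fl/fl, with 2 libraries each. Cre was present only in the KO group, so an effect of Cre itself and of Smad4 loss cannot be told apart. Whether replicate libraries represent different mice or pools is not in the labels, and the p-values therefore reflect a spread that may be technical.

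The transcription factor NRF2 (Nfe2l2) is held low by the adaptor KEAP1 and, when released, raises enzymes that make glutathione, reduce thioredoxin and detoxify reactive compounds. Superoxide dismutases turn superoxide into hydrogen peroxide, which catalase, peroxiredoxins and glutathione peroxidases remove. Iron enters cells through the transferrin receptor (Tfrc), is stored in ferritin (Fth1 and Ftl1) and leaves through ferroportin (Slc40a1). In tumours, macrophages that take up red cells are known for high haem oxygenase, ferritin and ferroportin, whereas dividing T cells are known for high transferrin receptor.

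Summed counts were 24366540 and 25790107 in the WT libraries and 25806382 and 26218277 in the KO libraries. Smad4, the targeted gene, had 752 and 736 counts in WT and 779 and 1088 in KO, so it was not lower in the libraries labelled KO (log2 fold change 0.19, edgeR adjusted p = 0.397), and all directions below are between libraries by their labels. The Smad4 log2 fold change was 0.40 when KO replicate 1 was left out but -0.063 when KO replicate 2 was left out. Here and below, leaving out a library keeps a single library in its group, so p-values of such fits hold no spread within that group. A count over the whole gene includes exons outside the deleted part and RNA of every cell in the sample, and the part of either in the Smad4 counts was not tested. All 17 monocyte and macrophage markers were counted, with sums of 21160 to 21980 CPM (counts scaled to library size, with TMM factors) in WT and 21920 to 22470 in KO, and 3 of these markers were higher and 4 lower. The list for CD8 T cells held Cd8a, Cd8b1 and the general T cell genes Cd3d, Cd3e, Cd3g, Cd2, Cd5 and Lck. These 8 genes summed to 2837 to 2898 CPM in WT and 1939 to 1956 in KO, with 5 lower. Their sum does not tell CD8 T cells from other cells of the T lineage. Cd4 was at 26.9 and 32.2 CPM in WT and 63.1 and 67.7 CPM in KO (edgeR adjusted p = 7.42e-06). Foxp3 and Zbtb7b, listed with Cd4, did not pass. The 9 dendritic markers summed to 5460 to 5932 CPM in WT and 5508 to 5757 in KO, with 2 higher and 1 lower. Of these, H2-Ab1 alone was at 3275 and 3714 CPM in WT. These levels go against a pure CD8 T cell sample: Lyz2, a myeloid lysozyme, was at 11560 to 12360 CPM over the 4 libraries, and Cd8a at 471.6 and 454.8 CPM in WT and 239.4 and 247.6 CPM in KO. CPM is not scaled for gene length, and which cells gave the RNA of the antioxidant and iron genes was not tested. The 17 neutrophil markers summed to 540.2 to 546.9 and 1684 to 1687 CPM, with 10 higher, and 9 counted erythroid markers to 29.4 to 37.3 and 57.5 to 92.0 CPM, with 4 higher. No monocyte, CD8 T cell, neutrophil or erythroid marker that was counted was at 0 in a library, and Ahsp of the erythroid list was not among the counted genes. Mitochondrial transcripts took 10.3% ± 0.123 of counts in WT and 6.78% ± 0.299 in KO (SD, n = 2 each). The part of these differences in the results on antioxidant and iron genes was not tested. In bulk RNA, fewer cells of a type and less RNA per cell cannot be told apart.

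Of the 36 genes, 13 were higher in the KO libraries, 1 was lower and 22 did not pass (edgeR quasi-likelihood test, Benjamini-Hochberg adjusted p under 0.05). Over all 13358 tested genes 21.2% were called, 10.1% higher and 11.0% lower, against 36.1% higher among the antioxidant and iron genes. The 36 were chosen with earlier results of these data known, so these shares describe the list and were not compared by a test. With library totals alone as the scaling, 2105 genes were higher and 1013 lower instead of 1354 and 1472, and 17 antioxidant and iron genes were higher and 1 lower. The antioxidant and iron genes were more abundant than most, with a median of 198 CPM against 21.9 over all tested genes, and abundant genes are called more often. At 100 CPM or more, a level chosen after the values were seen, 18.5% of 2004 genes were higher and 22.9% lower, and of 23 antioxidant and iron genes at that level 10 were higher and 0 lower (edgeR; DESeq2 and limma-voom each called 1 lower, and an unadjusted p under 0.05 gave 2). The changes were small: the median log2 fold change of the 36 was 0.13, against -0.0037 over all tested genes. Without WT replicate 1, 8 of the 36 were higher and 0 lower. Without WT replicate 2 the counts were 9 and 0, and without KO replicate 2 they were 12 and 3.

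**Figure D1:**
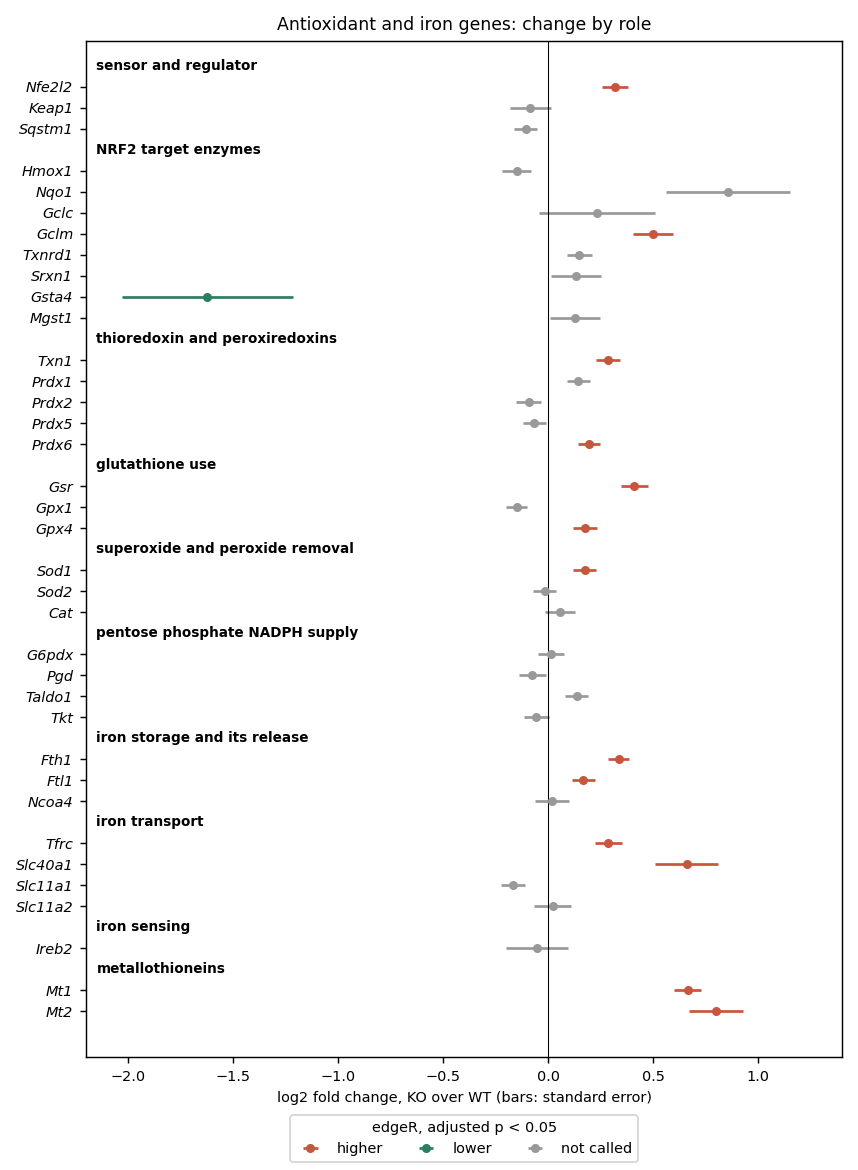
Log2 fold change of KO over WT on the horizontal axis for each of the 36 genes, grouped by role; points are edgeR estimates from 2 libraries a group and bars are standard errors. The 13 higher genes lie between 0.17 (Ftl1) and 0.80 (Mt2), and Gsta4 is the single lower gene at -1.62.

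Gene positions are GRCm38, GENCODE M21. Nfe2l2 (chr2:75675513-75704641), which encodes the regulator NRF2 itself, was among the higher genes. Its level was 124.6 and 126.6 CPM in the WT libraries and 153.1 and 159.7 CPM in the KO libraries. Both KO libraries lay above both WT libraries, and the rise was 1.25-fold (log2 fold change 0.32, SE 0.061, edgeR adjusted p = 0.00270). With 2 libraries a group such separation is common: groups did not overlap for 7984 of 13358 tested genes and 28 of the 36. Keap1, which targets NRF2 for degradation, was at 40.1 and 39.8 CPM in WT and 38.0 and 37.4 CPM in KO (edgeR adjusted p = 0.596). Sqstm1, which encodes the autophagy adaptor p62 that binds KEAP1, was at 963.0 and 928.9 CPM in WT and 853.8 and 902.2 CPM in KO (edgeR adjusted p = 0.183). Neither passed the test. Exons of Sqstm1 share 580 bases with Mrnip on the opposite strand, so its count is uncertain.

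Of 8 NRF2 target enzymes, 1 was higher, 1 was lower and 6 did not pass, so the shares of 12.5% each way were near the 10.1% and 11.0% over all tested genes. Gclm (chr3:122245557-122270732), the modifier subunit of the enzyme that limits glutathione synthesis, was at 34.5 and 36.5 CPM in WT and 51.6 and 48.8 CPM in KO. The groups did not overlap, and the rise was 1.41-fold (log2 fold change 0.50, SE 0.095, edgeR adjusted p = 0.00261). Gclc, the catalytic subunit of the same enzyme, was at 6.08 and 8.56 CPM in WT and 11.1 and 6.15 CPM in KO. Its groups overlapped (log2 fold change 0.23, edgeR adjusted p = 0.620). KO replicate 1 alone set the higher Gclc mean: without it the log2 fold change was -0.25, whereas leaving out KO replicate 2 gave 0.59.

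Haem oxygenase 1 (Hmox1; chr8:75093621-75100589), which breaks haem down and releases its iron, was abundant in every library. It was at 827.6 and 790.3 CPM in WT and 670.7 and 788.1 CPM in KO. The higher KO library lay just under the lower WT library, and Hmox1 did not pass (log2 fold change -0.15, SE 0.070, edgeR adjusted p = 0.157). The Hmox1 log2 fold change was -0.27 without KO replicate 2 and -0.038 without KO replicate 1. Hmox1 and Gclm, both NRF2 targets, thus had estimates on opposite sides of 0, and that difference was not tested.

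Nqo1, a quinone reductase used widely as an NRF2 readout, was scarce, at 2.83 and 3.12 CPM in WT and 4.33 and 6.45 CPM in KO. The difference did not pass (log2 fold change 0.86, SE 0.30, edgeR adjusted p = 0.0587). It did under some alternatives, among them the replicate block (0.83, edgeR adjusted p = 0.0447) and library totals alone (0.94, adjusted p = 0.0361 in edgeR). Over the 13 alternatives run the Nqo1 log2 fold change ran from 0.54 to 1.11, the highest without KO replicate 1. Gsta4 (chr9:78182774-78209349), a glutathione transferase for products of lipid peroxidation, was the single lower gene, at 3.59 and 3.32 CPM in WT and 0.865 and 1.37 CPM in KO, or 85, 83, 23 and 37 counts. It fell 3.08-fold (log2 fold change -1.62, SE 0.41, edgeR adjusted p = 0.0128). Leaving out either WT library ended the Gsta4 call (edgeR adjusted p = 0.0977 and 0.0576). Txnrd1, which reduces thioredoxin, was at 157.5 and 152.2 CPM in WT and 174.3 and 169.0 CPM in KO. It did not pass (edgeR adjusted p = 0.0968), but did under an alternative. Srxn1, which repairs over-oxidised peroxiredoxins, and the membrane-bound transferase Mgst1 had log2 fold changes of 0.13 each (edgeR adjusted p = 0.495 and 0.514).

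Promoter windows were searched for the core of the antioxidant response element, the site bound by NRF2 with small MAF proteins, because Nfe2l2 itself was called higher. The motif was TGACNNNGC on either strand, from 250 bases before to 50 bases after each RefSeq start (GRCm38.p6). Windows were found for 29 of the 36 genes; Hmox1, Gclc, Prdx6, Gsr, Gsta4, Slc40a1 and Slc11a2 had no entry. A match was present in 11 of the 29 (37.9%), against 14.0% of 27025 genes with a window. The set was listed for this response and holds known NRF2 targets. A share above that of all genes may thus come from the choice of list and is not a result of these libraries. Of 10 higher genes with a window 4 held a match, and of 19 that did not pass 7 did. These shares were not compared by a test. A match describes letters and does not show a bound site. The stretches around the match before the start are shown for the 4 higher genes and for the 2 uncalled genes Txnrd1 and Prdx1, with the match in capitals, 5′ to 3′ on the gene's strand.
Gclm, chr3:122245403-122245451, plus strand: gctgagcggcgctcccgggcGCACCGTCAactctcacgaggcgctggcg
Nfe2l2, chr2:75704875-75704913, minus strand: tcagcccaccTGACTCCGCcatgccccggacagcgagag
Sod1, chr16:90220686-90220734, plus strand: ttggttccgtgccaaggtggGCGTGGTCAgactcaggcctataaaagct
Mt2, chr8:94172519-94172567, plus strand: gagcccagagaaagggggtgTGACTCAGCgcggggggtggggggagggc
Txnrd1, chr10:82859094-82859142, plus strand: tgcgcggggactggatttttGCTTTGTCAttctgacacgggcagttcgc
Prdx1, chr4:116685446-116685494, plus strand: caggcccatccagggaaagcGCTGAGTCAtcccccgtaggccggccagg
The matches began 134 bases before the start in Gclm, 240 in Nfe2l2, 56 in Sod1, 79 in Mt2, 92 in Txnrd1 and 133 in Prdx1. Nfe2l2 and Mt2 read the motif as written, and the other 4 read it on the opposite strand. The other 5 genes with a match were Srxn1, G6pdx, Pgd, Mgst1 and Ncoa4, none of them called.

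Of thioredoxin and the 4 peroxiredoxins, 2 were higher and 0 lower (edgeR, DESeq2, limma-voom and an unadjusted p under 0.05 all gave 0 lower). Of 3 genes that use or recycle glutathione 2 were higher. These shares were 40.0% and 66.7%. All of these genes had a mean of at least 100 CPM, a level at which 18.5% of all genes were higher. Txn1 (chr4:57943373-57956411), the small protein that reduces disulphides, was at 488.7 and 480.5 CPM in WT and 564.3 and 616.2 CPM in KO. It rose 1.22-fold, with no overlap between the groups (log2 fold change 0.28, SE 0.057, edgeR adjusted p = 0.00350). Gsr (chr8:33652523-33698163), which returns oxidised glutathione to its reduced form, was at 98.3 and 95.7 CPM in WT and 131.6 and 126.3 CPM in KO. It rose 1.33-fold (log2 fold change 0.41, SE 0.065, edgeR adjusted p = 0.000705). Gsr and Txn1 were called under each of the 13 alternatives run.

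Of the peroxiredoxins, which use thioredoxin or glutathione to remove peroxides, 1 of 4 passed, and differences between them were not tested. Prdx6 was at 323.8 and 322.4 CPM in WT and 373.8 and 364.8 CPM in KO and rose 1.14-fold (log2 fold change 0.19, SE 0.053, edgeR adjusted p = 0.0208). Its call was lost without WT replicate 1, WT replicate 2 or KO replicate 1 (edgeR adjusted p = 0.116, 0.109 and 0.0756) and with the replicate block (edgeR adjusted p = 0.0809). Prdx1 was at 906.3 and 892.3 CPM in WT and 958.5 and 1029 CPM in KO. It did not pass (log2 fold change 0.14, edgeR adjusted p = 0.0786), but passed under some alternatives, among them DESeq2 (adjusted p = 0.0494). Prdx2 and the mitochondrial Prdx5 had log2 fold changes of -0.094 and -0.065 (edgeR adjusted p = 0.309 and 0.441). Exons of Prdx2 overlap Junb and Rnaseh2a, and exons of Prdx5 overlap Trmt112, on opposite strands, so both counts are uncertain.

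The 2 glutathione peroxidases stood on opposite sides of 0. Gpx4, which reduces lipid peroxides in membranes, was at 192.9 and 202.3 CPM in WT and 222.8 and 223.1 CPM in KO, a rise of 1.13-fold (log2 fold change 0.17, SE 0.056, edgeR adjusted p = 0.0446). This call was close to the threshold and was lost without any 1 of the 4 libraries (edgeR adjusted p from 0.0730 to 0.341), with the replicate block (edgeR adjusted p = 0.127), with DESeq2 (adjusted p = 0.0553) and with limma-voom (adjusted p = 0.0503). Of the 50-base stretches of the longest Gpx4 transcript, 61.7% also occur in transcripts of 2 other annotated genes, so its count is uncertain. Gpx1, the abundant cytosolic peroxidase, was at 946.3 and 987.8 CPM in WT and 876.0 and 867.2 CPM in KO. It did not pass in edgeR (log2 fold change -0.15, SE 0.051, adjusted p = 0.0554) and was lower with DESeq2 (adjusted p = 0.0355) and limma-voom (adjusted p = 0.0334).

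Of the enzymes that remove superoxide and peroxide, Sod1, the cytosolic superoxide dismutase, was at 526.1 and 568.6 CPM in WT and 624.2 and 610.8 CPM in KO. It rose 1.13-fold (log2 fold change 0.17, SE 0.056, edgeR adjusted p = 0.0423), and the call was lost without WT replicate 1, KO replicate 1 or KO replicate 2 (edgeR adjusted p = 0.389, 0.120 and 0.0510) and with the replicate block (edgeR adjusted p = 0.120). The mitochondrial Sod2 ranged from 232.8 to 239.9 CPM over the 4 libraries, with overlapping groups (edgeR adjusted p = 0.878). Catalase (Cat) ranged from 76.1 to 79.4 CPM (edgeR adjusted p = 0.650). Sod1 was thus the only 1 of these 3 to pass, and its difference from Sod2 was not tested.

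The pentose phosphate pathway supplies the NADPH that thioredoxin and glutathione reductases use. Of its 4 genes 0 passed in edgeR, 0 with DESeq2 and 0 with limma-voom, while 1 was higher before adjustment (edgeR p under 0.05). Over all tested genes 21.2% were called in edgeR. G6pdx, the first enzyme of the pathway, was at 155.5 and 150.8 CPM in WT and 150.7 and 158.4 CPM in KO, and Pgd was at 202.5 and 193.3 CPM in WT and 178.0 and 197.3 CPM in KO. Both genes overlapped between the groups (edgeR adjusted p = 0.914 and 0.452), as did Tkt, a transketolase, at 320.7 to 355.0 CPM (edgeR adjusted p = 0.560). Taldo1, a transaldolase, was at 274.5 and 274.3 CPM in WT and 302.5 and 300.2 CPM in KO without passing (log2 fold change 0.14, edgeR adjusted p = 0.0942), and passed when scaled by library totals alone (0.22, adjusted p = 0.00931 in edgeR). Exons of G6pdx share 418 bases with Ikbkg on the opposite strand, so its count is uncertain.

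**Figure D2:**
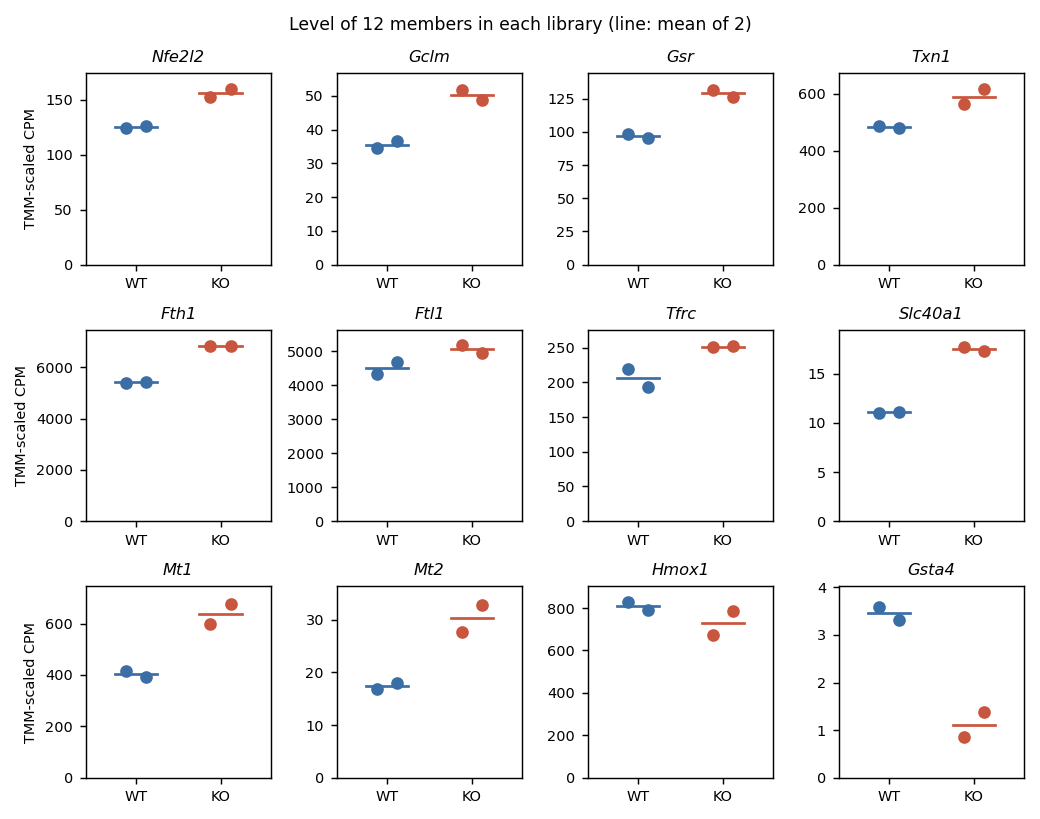
TMM-scaled CPM of 12 genes in each of the 4 libraries, on axes that start at 0; points are libraries, lines are means of 2, blue is WT and red is KO. Fth1 has WT libraries at 5390 and 5442 CPM below KO libraries at 6829 and 6836 CPM, whereas the Hmox1 KO libraries, at 670.7 and 788.1 CPM, lie below WT at 790.3 and 827.6 CPM.

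Ferritin had the highest levels of the set, per kilobase as well as in CPM, and was higher in the KO libraries. Fth1 (chr19:9980598-9985098), the heavy chain that oxidises iron for storage, was at 5390 and 5442 CPM in WT and 6829 and 6836 CPM in KO. The libraries of each group lay close together, and Fth1 rose 1.26-fold (log2 fold change 0.34, SE 0.049, edgeR adjusted p = 0.000368). It was called under each alternative run, with log2 fold changes from 0.33 to 0.42. Fth1 took 0.524% and 0.527% of all counts in the WT libraries and 0.704% in each KO library. Together the 36 genes took 1.79% ± 0.0145 of counts in WT and 2.15% ± 0.0090 in KO (SD, n = 2 each). Ftl1 took 0.422% and 0.453% of counts in WT and 0.534% and 0.509% in KO. All of these are shares of unscaled totals, of which mitochondrial transcripts took 10.3% in WT and 6.78% in KO.

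Ftl1 (chr7:45457944-45459884), the light chain of ferritin, was at 4342 and 4676 CPM in WT and 5179 and 4942 CPM in KO. It rose 1.12-fold (log2 fold change 0.17, SE 0.055, edgeR adjusted p = 0.0469), just past the threshold. The Ftl1 call was lost without WT replicate 1, WT replicate 2 or KO replicate 1 (edgeR adjusted p = 0.435, 0.0512 and 0.241), with the replicate block (edgeR adjusted p = 0.137) and with no filter on low counts (edgeR adjusted p = 0.0502). Of its 50-base stretches, 90.6% also occur in transcripts of 17 other annotated genes, several of them ferritin pseudogenes, so the Ftl1 count is uncertain. For Fth1 that share was 2.88%. Ncoa4, the receptor that carries ferritin to lysosomes, ranged from 59.7 to 62.5 CPM with overlapping groups (edgeR adjusted p = 0.911).

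The uptake gene Tfrc and the export gene Slc40a1 were higher. Tfrc (chr16:32608920-32632794), which takes up transferrin-bound iron, was at 219.0 and 193.7 CPM in WT and 250.4 and 252.3 CPM in KO. It rose 1.22-fold (log2 fold change 0.29, SE 0.065, edgeR adjusted p = 0.00752) and was not called without WT replicate 2 (0.20, edgeR adjusted p = 0.107). Slc40a1 (chr1:45908068-45926523), the iron exporter ferroportin, was at 11.0 and 11.1 CPM in WT and 17.7 and 17.3 CPM in KO, or 261, 278, 470 and 466 counts. It rose 1.58-fold (log2 fold change 0.66, SE 0.15, edgeR adjusted p = 0.00790), with tight libraries in each group, and was not called without WT replicate 1 (0.65, edgeR adjusted p = 0.0613).

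Neither of the 2 divalent metal transporters passed. Slc11a1, which pumps metal out of the phagosome of myeloid cells, was at 279.2 and 263.8 CPM in WT and 237.4 and 245.8 CPM in KO. The Slc11a1 difference did not pass (log2 fold change -0.17, SE 0.057, edgeR adjusted p = 0.0535), and the log2 fold change was -0.20 without KO replicate 2. Slc11a1 was lower with a filter of 1 CPM in all libraries (-0.17, edgeR adjusted p = 0.0471). Its relative Slc11a2, which moves iron out of endosomes, ranged from 54.4 to 59.3 CPM with overlapping groups (edgeR adjusted p = 0.899), and its exons overlap Gm5475 on the opposite strand. Ireb2, an iron regulatory protein, was at 25.7 and 19.2 CPM in WT and 22.2 and 21.0 CPM in KO, also with overlap (edgeR adjusted p = 0.846).

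Iron regulatory proteins bind hairpins called iron-responsive elements when iron is scarce. In the 5′ UTR of ferritin and ferroportin transcripts such a hairpin blocks translation, and in the 3′ UTR of the transferrin receptor transcript it protects the RNA from decay. Coding transcripts of GENCODE M21 (GRCm38) were searched on the sense strand for a 17-base pattern: C, 5 bases, the loop CAGTGN and 5 bases that pair with the first 5 (G with T allowed). The pattern occurred in 5 of the 36 genes and in 294 of 21877 coding genes (1.34%). The set was listed partly for iron handling, so a larger share may come from its choice. Hairpins with an unpaired base among those 5 pairs would be missed, so genes without a match may still hold one. The 5 were Fth1, Ftl1, Slc40a1, Tfrc and Keap1. In Keap1, which did not pass, it lay in the coding part, and in the 4 higher genes it lay in a UTR. The loop alone within 50 bases after the RefSeq start was found in Srxn1 and Txnrd1, of 29 genes with a window, and in 8.37% of all genes with one. The sites of both ferritin genes and of Tfrc are shown with the loop in capitals, because they are where the transcripts of storage and uptake genes share sequence.
Fth1, 5′ UTR, chr19:9982732-9982760, plus strand: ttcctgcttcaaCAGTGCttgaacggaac
Ftl1, 5′ UTR, chr7:45459779-45459807, minus strand: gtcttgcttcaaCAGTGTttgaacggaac
Tfrc, 3′ UTR, chr16:32631219-32631247, plus strand: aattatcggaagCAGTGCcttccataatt
Tfrc, 3′ UTR, chr16:32631598-32631626, plus strand: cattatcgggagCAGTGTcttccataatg
Tfrc, 3′ UTR, chr16:32631663-32631691, plus strand: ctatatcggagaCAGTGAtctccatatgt
Tfrc, 3′ UTR, chr16:32631710-32631738, plus strand: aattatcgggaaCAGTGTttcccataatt
Among the 36 genes, this pattern lay in a 5′ UTR in Fth1, Ftl1 and Slc40a1 and in the 3′ UTR in Tfrc. These 4 genes were higher, with log2 fold changes of 0.34, 0.17, 0.66 and 0.29. Where the pattern lay in the other coding genes was not read, nor were their changes. Transcripts with hairpins of another form were not looked for. Counts of RNA do not measure translation, through which a 5′ UTR site acts.

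Metallothioneins, small cysteine-rich proteins that bind zinc and copper, were both higher and by more than most of the set. Both lie on chromosome 8, Mt1 at chr8:94179082-94180327 and Mt2 at chr8:94172664-94173568, on the plus strand. Mt1 was at 413.7 and 391.1 CPM in WT and 599.8 and 675.4 CPM in KO. Both KO libraries lay well above WT, and Mt1 rose 1.58-fold (log2 fold change 0.66, SE 0.064, edgeR adjusted p = 1.09e-05). Mt2 was at 16.9 and 17.9 CPM in WT and 27.7 and 32.9 CPM in KO and rose 1.74-fold (log2 fold change 0.80, SE 0.13, edgeR adjusted p = 0.000843). Both were called under each alternative run, although 45.5% of the 50-base stretches of Mt2 also occur in another annotated transcript, so the Mt2 count is uncertain. Per kilobase, Mt1 was far more abundant than Mt2, with deposited FPKM of 311 ± 11.7 and 28.5 ± 1.22 in WT and 495 ± 40.6 and 49.9 ± 5.90 in KO (SD, n = 2 each).

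The metallothionein promoters are shown because both genes rose and because their known regulator, MTF1, binds metal response elements. The core was searched as TGCACNC or TGCGCNC on either strand, and 28.2% of the 27025 genes with a window held a match, as did 8 of 29 antioxidant and iron genes (27.6%). Before the start, Mt1 had 1 match and Mt2 had 3, shown in capitals, and 2 more matches of Mt1 and 1 of Mt2 lay within 50 bases after it.
Mt1, chr8:94179029-94179088, plus strand: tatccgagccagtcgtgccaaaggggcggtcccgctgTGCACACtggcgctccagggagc
Mt2, chr8:94172368-94172617, plus strand: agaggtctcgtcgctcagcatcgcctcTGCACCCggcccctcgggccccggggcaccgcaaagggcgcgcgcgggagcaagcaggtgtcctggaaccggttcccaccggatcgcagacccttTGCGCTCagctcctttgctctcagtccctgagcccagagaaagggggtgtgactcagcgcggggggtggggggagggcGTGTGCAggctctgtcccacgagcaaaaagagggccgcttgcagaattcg
Mtf1 itself had a log2 fold change of -0.054 (edgeR adjusted p = 0.813). The zinc exporter gene Slc30a1, a known MTF1 target, was at 3.71 and 4.28 CPM in WT and 4.10 and 4.04 CPM in KO (edgeR adjusted p = 0.965) and did not pass. Of 8 metal response genes outside the set, 0 passed in edgeR, 0 with DESeq2 and 0 with limma-voom. Before adjustment 1 was higher (edgeR p under 0.05). Over all tested genes 21.2% were called in edgeR.

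**Figure D3:**
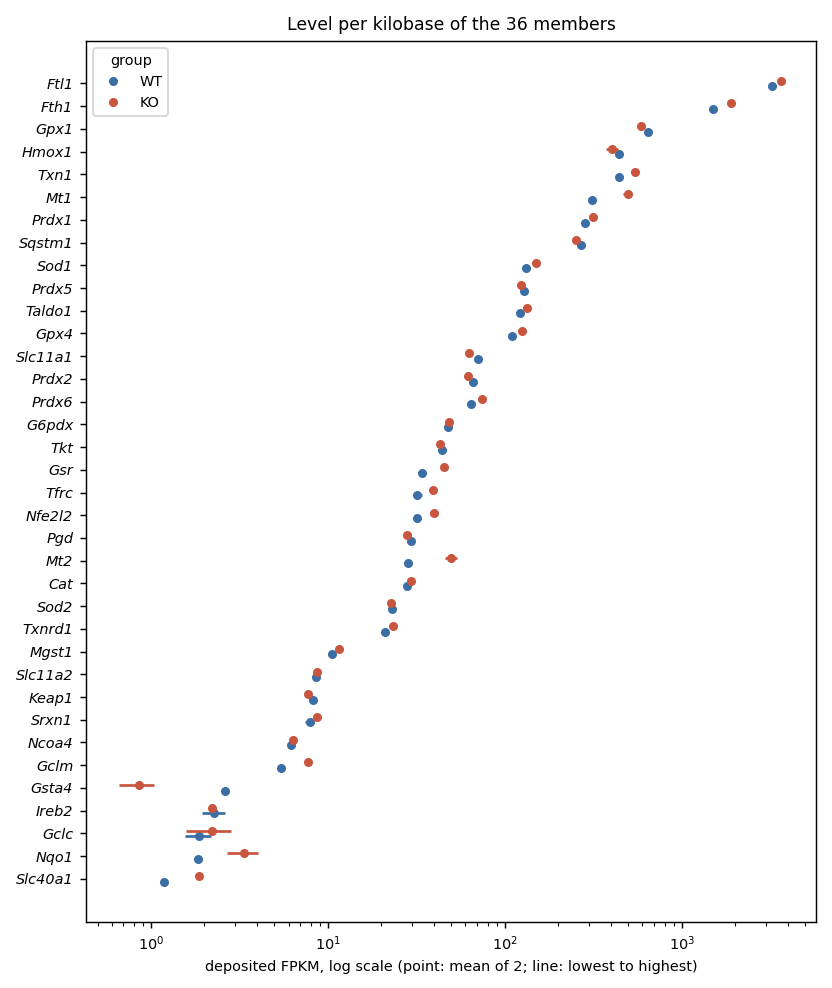
Deposited FPKM, a level per kilobase, on a log axis for the 36 genes in order of the WT mean; points are means of 2 libraries, lines run from the lowest to the highest library, blue is WT and red is KO. Ftl1 and Fth1 lead at 3239 and 1503 FPKM in WT, and Slc40a1 is last at 1.18 FPKM.

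Per kilobase, the levels spanned a wide range. In WT the order of the deposited FPKM was led by Ftl1 at 3239 ± 177, Fth1 at 1503 ± 13.6, Gpx1 at 646 ± 21.0, Hmox1 at 445 ± 13.5 and Txn1 at 444 ± 4.35 (SD, n = 2 each). Hmox1 and Txn1 did not differ beyond their spread in WT, whereas in KO they were at 403 ± 45.1 and 544 ± 32.7 FPKM. The lowest were Ireb2 at 2.28 ± 0.468, Gclc at 1.87 ± 0.453, Nqo1 at 1.84 ± 0.133 and Slc40a1 at 1.18 ± 0.0107 FPKM, and the first 3 of these did not differ beyond their spread. The largest fold changes of the set (Gsta4, Mt2, Slc40a1 and Mt1 among the called genes) ranked 32, 22, 36 and 6 in this order.

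**Figure D4:**
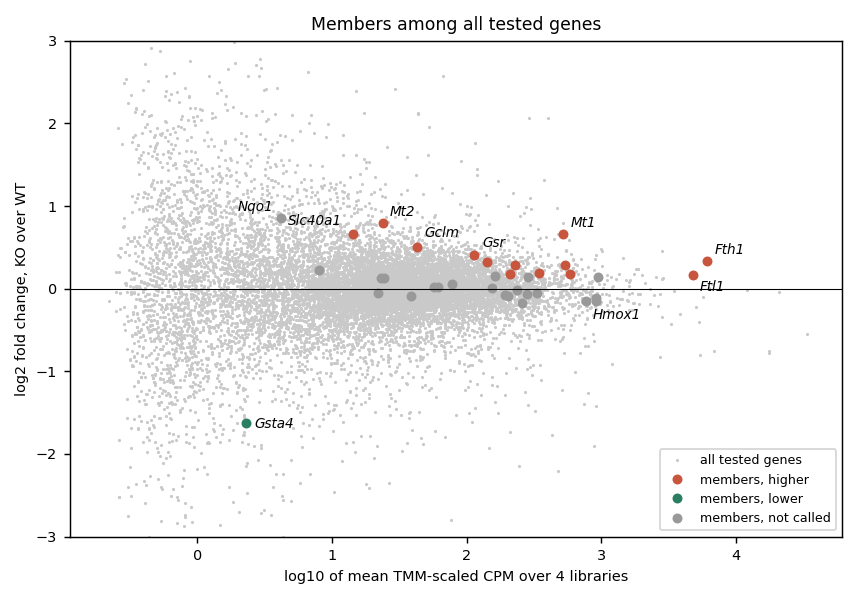
Log2 fold change of KO over WT against the log10 of mean CPM for all tested genes (grey) and the 36 antioxidant and iron genes (coloured by call); 83 genes beyond 3 on the vertical axis are not drawn. Fth1 and Ftl1 lie at the far right, and Mt1 lies at a log2 fold change of 0.66.

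The wider pathway was read from lists of 130 further genes, of which 125 were tested, 21 were higher and 11 lower. These shares, 16.8% and 8.8%, compare with 10.1% and 11.0% over all tested genes, and the median log2 fold change was 0.08. These lists, too, were chosen with earlier results of these data known, and the shares were not compared by a test. Without WT replicate 1 the counts were 11 higher and 5 lower, without WT replicate 2 they were 15 and 5, and with library totals alone 35 were higher. Among 16 partners and further targets of NRF2, 2 were higher and 1 lower (12.5% and 6.25%, near or below the shares over all tested genes). Slc7a11, the cystine importer that feeds glutathione synthesis, was at 44.2 and 44.9 CPM in WT and 77.7 and 77.1 CPM in KO and rose 1.74-fold (log2 fold change 0.80, SE 0.080, edgeR adjusted p = 1.65e-05). Its partner chain Slc3a2 had a log2 fold change of 0.016 (edgeR adjusted p = 0.876). Ephx1, an epoxide hydrolase, rose 1.21-fold (edgeR adjusted p = 0.0438; 0.423 without WT replicate 1), and Cul3, the ubiquitin ligase scaffold that KEAP1 recruits, fell 1.41-fold (edgeR adjusted p = 0.00689; 0.0819 without WT replicate 2). Bach1, a repressor that competes with NRF2 at haem oxygenase, had a log2 fold change of -0.25 (edgeR adjusted p = 0.170).

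Of 36 glutathione and thiol enzymes 8 were higher and 4 lower. These shares were 22.2% and 11.1%, against 10.1% and 11.0% over all tested genes, so the lower share was near that of all genes. The glutathione-handling enzyme Ggt5 rose 2.36-fold, from 5.02 and 4.88 CPM to 11.7 and 11.7 CPM (edgeR adjusted p = 0.000708). The glutaredoxins Glrx5 and Glrx3 rose 1.38-fold and 1.19-fold, and the methionine sulphoxide reductase Msra rose 1.37-fold (edgeR adjusted p = 0.00166, 0.00627 and 0.00606). Without WT replicate 1 the adjusted p-values of Glrx3 and Msra were 0.0620 and 0.0854. The other higher genes, given outside the naming rule, were Gstp1, Gstm1, Sesn2 and Sod3, with log2 fold changes from 0.22 to 0.55. Gsto1 and Gstt3, 2 glutathione transferases, fell 1.33-fold and 1.79-fold, glutathione synthetase (Gss) fell 1.34-fold and the stress-induced Sesn1 fell 1.31-fold (edgeR adjusted p = 0.00313, 0.00705, 0.0194 and 0.0298). Gss, the second enzyme of glutathione synthesis, thus moved against Gclm, the regulator of the first. Leaving out either WT library ended the Gss call (edgeR adjusted p = 0.117 each). Sesn1 was not called without WT replicate 1 (edgeR adjusted p = 0.317), nor Gstt3 without WT replicate 2 (edgeR adjusted p = 0.104). Of 10 further NADPH genes 2 were higher and 0 lower (edgeR, DESeq2 and limma-voom; 1 lower before adjustment, at p under 0.05): the folate enzymes Mthfd2 and Mthfd1, 1.27-fold and 1.21-fold (edgeR adjusted p = 0.00357 and 0.00853; 0.0639 for Mthfd1 without WT replicate 1).

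Of 39 tested iron and haem genes 7 were higher and 1 lower (17.9% and 2.56%, against 10.1% and 11.0% over all tested genes). Steap4, a metalloreductase, rose 5.34-fold, from 7.39 and 11.0 CPM to 46.2 and 52.5 CPM (log2 fold change 2.42, SE 0.16, edgeR adjusted p = 5.11e-07). Lcn2, which binds iron-carrying siderophores and is also in the neutrophil list, rose 3.06-fold, from 7.93 and 7.04 CPM to 22.9 and 22.9 CPM (edgeR adjusted p = 1.09e-05). Transferrin (Trf) rose 1.33-fold, from 256.5 and 271.0 CPM to 343.5 and 356.0 CPM, and Alas1, the first enzyme of haem synthesis, rose 1.48-fold (edgeR adjusted p = 0.000254 and 0.000649). The other 3 higher genes, given outside the naming rule, were Fbxl5, which targets iron regulatory proteins for degradation, the iron chaperone Pcbp1 and the iron-sulphur protein Cisd1, with log2 fold changes of 0.40, 0.20 and 0.34. The lower gene, chosen after its values were seen, was the ferroxidase gene Heph, with 13 and 10 counts in WT and 0 and 1 in KO. Ltf, Mpo and Cd163, which the marker lists also hold, did not pass, and the scavenger receptor Cd163 was at 67.1 and 65.5 CPM in WT and 74.6 and 75.2 CPM in KO. The neutrophil and erythroid marker sums given above were higher in the same libraries.

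Genes linked to ferroptosis, an iron-dependent death by lipid peroxidation, gave 1 of 9 higher (11.1%), 2 lower and 6 not called, against 10.1% higher and 11.0% lower over all tested genes. Dhodh, which reduces ubiquinone in mitochondria, rose 1.45-fold (edgeR adjusted p = 0.00136). Acsl4, which loads membranes with oxidisable fatty acids, fell 1.24-fold, from 101.1 and 96.1 CPM to 78.0 and 80.8 CPM (edgeR adjusted p = 0.00745; 0.0821 without WT replicate 1). The second lower gene, chosen after its values were seen, was the lipoxygenase gene Alox15, at 70 and 91 counts in WT and 27 and 33 in KO. Of 7 tested genes of the phagocyte NADPH oxidase, which makes superoxide, 1 was higher and 3 lower (14.3% and 42.9%). Over all tested genes the shares were 10.1% and 11.0%. At 100 CPM or more, where 5 of the 7 lay with all 4 called among them, 18.5% of genes were higher and 22.9% lower. Rac2 fell 1.20-fold, from 848.5 and 847.6 CPM to 708.8 and 710.8 CPM (edgeR adjusted p = 0.00290), and Cybb, the catalytic chain, fell 1.19-fold (edgeR adjusted p = 0.00574). Ncf4 fell 1.16-fold and Ncf1 rose 1.18-fold (edgeR adjusted p = 0.0224 and 0.0188). Ncf4 was not called without WT replicate 1, WT replicate 2 or KO replicate 2 (edgeR adjusted p = 0.0704, 0.177 and 0.0607), nor Ncf1 when either WT library was left out (edgeR adjusted p = 0.156 and 0.0602).

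**Figure D5:**
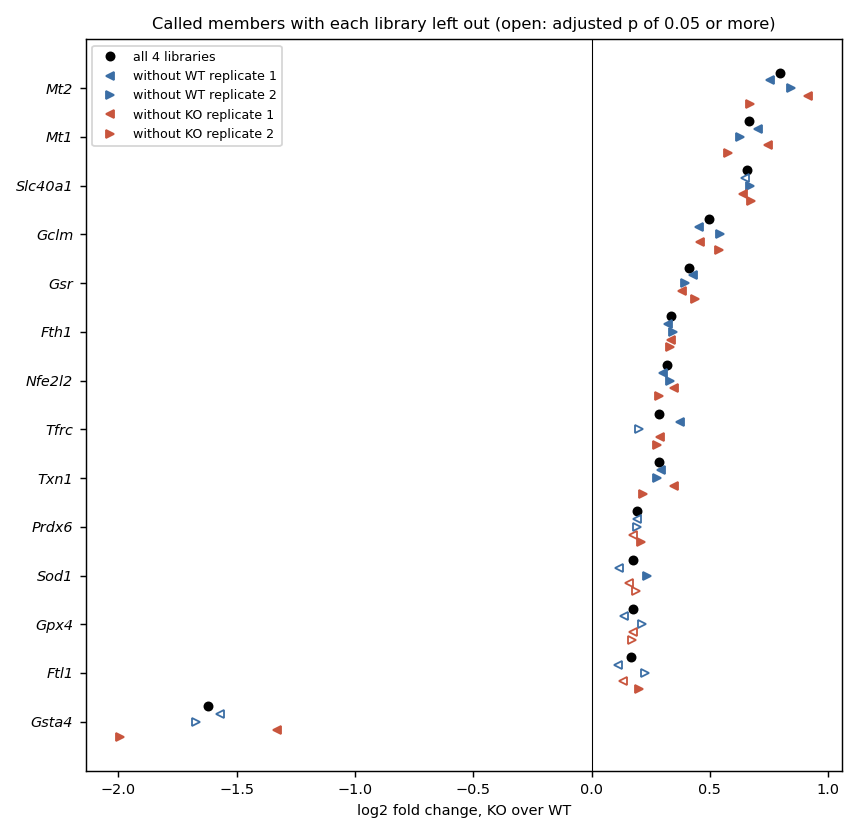
Log2 fold change of KO over WT for the 14 called genes with all 4 libraries (black) and with each library left out in turn (coloured triangles); filled symbols passed an edgeR adjusted p of 0.05 and open symbols did not. Nfe2l2, Gclm, Txn1, Gsr, Fth1, Mt1 and Mt2 are filled throughout, and Gpx4 is open without any 1 library.

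Of the 14 calls, 7 held under all 13 alternatives in library scaling, filter, test, block and libraries left out: Nfe2l2, Gclm, Txn1, Gsr, Fth1, Mt1 and Mt2. The log2 fold changes of these 7 ranged from 0.22 (Txn1 without KO replicate 2) to 0.91 (Mt2 without KO replicate 1). The other 7 (Gsta4, Prdx6, Gpx4, Sod1, Ftl1, Tfrc and Slc40a1) kept their direction under each alternative that tested them but were not called under at least 1.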

How the data were processed

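Total RNA of sorted cells was sequenced in 4 libraries. The submitters' processing notes name the build mm10 and, with no roles, the tools featureCounts, Bowtie2, DESeq2, edgeR and Trim Galore 0.4.4. How strand, multiple matches and annotation were handled is not given there. Each gene has a deposited count of whole reads, per the file headers. Deposited FPKM values, scaled by the authors for gene length and library size, served only to compare levels between genes.

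The test was robust quasi-likelihood in edgeR 4.0.16 (R 4.3.3), with TMM factors and the default filterByExpr filter (minimum count 10, minimum total 15), leaving 13358 of 14082 genes, with Benjamini-Hochberg adjustment over all of them. CPM are TMM scaled, ± is the SD over 2 libraries, and the SE of a log2 fold change comes from its F statistic. The step was tested on simulated data. Replicates differed by more than counting noise (chi-square per degree of freedom 7.39 between WT and 9.72 between KO libraries), so none were merged. Alternatives included DESeq2 1.42.0 and limma-voom (limma 3.58.1). Fits with a library left out keep a single library in its group, so calls gained or lost in them hold no spread within that group. Overlaps are from GENCODE M21, promoters from RefSeq (GRCm38.p6). The members and lists were chosen with earlier results of these data known. Each of the 36 genes is named. Of further pathway genes, up to 4 called genes of at least 5 CPM per list and direction are named by smallest p. The hairpin pattern was chosen after the planned loop search.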

Additional observations from a re-analysis of the deposited data

How the results depend on the processing

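Of 36 genes, 13 were higher and 1 lower, and with each library left out in turn 8 to 12 were higher and 0 to 3 lower. DESeq2 and limma-voom each called 2 lower and an adjusted p of 0.1 called 3. The median log2 fold change of 0.13 was 0.22 with library totals alone and 0.097 to 0.14 with a library left out. Of 125 further pathway genes, 21 were higher and 11 lower: 35 were higher with library totals alone, and 11 to 25 higher and 5 to 14 lower with a library left out. Over all genes 1354 were higher and 1472 lower: 2105 were higher with library totals alone, and leaving out WT replicate 1 or 2 gave 714 or 837 higher and 831 or 922 lower (714 to 1605 and 831 to 1787 over all 4 omissions). The Smad4 log2 fold change of 0.19 ran from -0.063 to 0.40 with a library left out. Leaving out KO replicate 1 or 2 raised the calls over all genes, to 1537 or 1605 higher and 1728 or 1787 lower. The cause of these shifts was not tested.

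The signs that changed belonged to genes that did not pass with all 4 libraries. With library totals alone the log2 fold changes were 0.0003 for Keap1, 0.031 for Ireb2, 0.0083 for Pgd, 0.020 for Prdx5, 0.069 for Sod2 and 0.028 for Tkt. Without WT replicate 1 they were 0.17 for Ireb2 and 0.0088 for Tkt, and without WT replicate 2 -0.0061 for G6pdx and -0.026 for Slc11a2. Without KO replicate 1 they were -0.25 for Gclc, -0.014 for Ncoa4 and -0.032 for Slc11a2, and without KO replicate 2 -0.024 for G6pdx and 0.0032 for Sod2. Over the 4 omissions the opposite ends were 0.048 for G6pdx, 0.59 for Gclc, 0.048 for Ncoa4, 0.072 for Slc11a2, -0.037 for Sod2 and -0.12 for Tkt. Of 467 values of single genes under an alternative, 414 kept their direction and side of the threshold, 24 were no longer called, 14 became called and 15 changed sign. With the replicate number as a replicate block, 10 of 36 genes were higher and 1 lower, but the numbers showed no pairing: differences between replicates 1 and 2 correlated over genes at -0.079 between the groups. At under 10 CPM (Nqo1, Gclc and Gsta4) errors were wide.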
